A study of Rattus norvegicus with 32 samples.

Results

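The genes described here encode the complement, coagulation and fibrinolysis proteins that hepatocytes secrete into plasma, with the fibrinogen chains left out. The set was a list of 39 gene symbols looked up in the rat liver count table, and 38 of them were in it, out of 17327 genes; C5 was not analysed here. All 38 passed the filter on low counts that left 11002 genes to test. They took between 4.77% and 5.88% of the gene reads of each library. Their roles were the classical and lectin pathways (7 genes), C3 and the alternative pathway (3), the terminal pathway (5), complement regulators (4), vitamin K-dependent factors (7), other coagulation factors (2), the contact system (4), thrombin inhibitors (2) and fibrinolysis (4).

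Complement is a chain of plasma proteases. Antibody complexes start it through C1r and C1s, and sugars on microbes start it through the mannose-binding lectins and their proteases Masp1 and Masp2. Both routes cleave C2 and then C3, the alternative pathway (Cfb, Cfd) amplifies the cleavage, and C6, C8 and C9 build the pore that lyses the target. Coagulation is another protease chain. Tissue factor with F7, or the contact proteins F12, Klkb1 and F11, activate F9 and F10, which with F5 turn prothrombin (F2) into thrombin. Serpinc1 (antithrombin) and Serpind1 (heparin cofactor II) block thrombin, protein C (Proc) with protein S (Pros1) switches off F5, and plasmin, made from Plg, dissolves the clot. Several of these genes are known to respond to glucocorticoids and to inflammatory cytokines.

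Liver RNA came from 32 rats of the strain Charles River Sprague Dawley, in 8 groups of 4 that crossed sex, genotype and age (30 or 60 days), all under basal conditions. The genotypes were WT (Cbg+/+) and KO (Cbg-/-), in which CRISPR/Cas9 had been used against SerpinA6, the gene of corticosteroid-binding globulin (CBG), the plasma carrier of corticosterone. No group carried a further treatment or allele. The labels do not state the number of founder lines or litters, so the p-values measure the spread between these rats within groups. Libraries held 12951969 to 21954929 gene reads. The 30-day libraries were deeper (16806943 or more) than most of the 60-day ones (17133332 or fewer), so age and depth moved together. Levels are CPM, the count of a gene relative to the library total after TMM scaling between libraries, listed in replicate order. A gene is called where edgeR's quasi-likelihood test gave a Benjamini-Hochberg adjusted p below 0.05 over all 11002 genes.

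The target transcript itself fell in KO in each comparison. Serpina6 changed by -3.59 ± 0.26 (log2 fold change ± SE) in 30-day females, -4.00 ± 0.26 in 30-day males, -3.44 ± 0.26 in 60-day females and -2.95 ± 0.25 in 60-day males. It lies on chromosome 6 of the rat assembly GRCr8, which holds 0 of the 39 listed genes. All 10 hepatocyte markers were read in all groups, with a summed level of 209770 to 297970 CPM. Of the 32 libraries 1 stood apart. The first replicate of 60-day KO females had a summed level of 2072 CPM over 13 photoreceptor genes, each of which was highest there, against 2.89 to 10.9 CPM in the other libraries. Each comparison that uses it is also given without it: the count, and the calls that end or appear. These are whole livers, in which fewer hepatocytes and less RNA per hepatocyte cannot be told apart.

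The promoters of the 5 genes on which the comparisons below turn are shown first, as RefSeq gives them for GRCr8: Klkb1, Masp1 and F9, which differed between genotypes, and Vtn and F7, whose sex difference changed with age. Each run is the 250 bases before the start site, 5′ to 3′ on the gene's own strand. Capitals mark matches, on either strand, to 5 motifs: CAAAGTCCA (HNF4 site), GTTAATNAT (part of the HNF1 site), TTGCNNAA (C/EBP site), TTCNNNGAA (STAT site) and ACANNNTGT (glucocorticoid receptor core). The windows lie at chr16:53690976-53691225 (plus strand), chr11:90839472-90839721 (plus), chrX:143388392-143388641 (plus), chr10:63892532-63892781 (plus) and chr16:83202739-83202988 (minus).
Klkb1: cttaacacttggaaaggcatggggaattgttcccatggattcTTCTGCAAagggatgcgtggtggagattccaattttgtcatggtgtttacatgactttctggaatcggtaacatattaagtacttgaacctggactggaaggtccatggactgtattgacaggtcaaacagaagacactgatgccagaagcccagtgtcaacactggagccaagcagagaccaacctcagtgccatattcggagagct
Masp1: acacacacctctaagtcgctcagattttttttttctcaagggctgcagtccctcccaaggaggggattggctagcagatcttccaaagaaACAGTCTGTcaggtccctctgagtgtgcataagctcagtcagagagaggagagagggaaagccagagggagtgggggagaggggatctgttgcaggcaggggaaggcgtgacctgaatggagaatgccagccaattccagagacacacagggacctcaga
F9: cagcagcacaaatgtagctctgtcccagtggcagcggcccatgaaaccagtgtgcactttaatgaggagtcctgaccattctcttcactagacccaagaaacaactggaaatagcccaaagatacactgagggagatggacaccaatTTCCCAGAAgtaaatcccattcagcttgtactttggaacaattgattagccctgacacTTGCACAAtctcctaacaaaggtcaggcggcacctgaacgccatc
Vtn: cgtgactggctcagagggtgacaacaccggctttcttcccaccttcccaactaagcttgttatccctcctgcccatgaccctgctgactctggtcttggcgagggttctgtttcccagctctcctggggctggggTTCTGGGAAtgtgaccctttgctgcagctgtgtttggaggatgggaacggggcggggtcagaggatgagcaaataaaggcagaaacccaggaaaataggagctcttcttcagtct
F7: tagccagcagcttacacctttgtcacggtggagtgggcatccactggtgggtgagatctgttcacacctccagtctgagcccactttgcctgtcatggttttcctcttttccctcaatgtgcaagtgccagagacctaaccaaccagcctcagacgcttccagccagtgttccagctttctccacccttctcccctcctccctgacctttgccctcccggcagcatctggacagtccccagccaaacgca

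The Klkb1 window holds the C/EBP letters on the reverse strand, 208 bases before the start. In Masp1 the glucocorticoid receptor core stands 160 bases before the start. F9 has the STAT letters at 103 bases and the C/EBP letters at 45 bases, and Vtn has the STAT letters at 115 bases. None of the 5 letter strings is in the F7 window. Of the 39 genes 30 had a promoter in the RefSeq table, and 19 of these had at least 1 match. The C/EBP letters were in 11 of the 30 (36.7%) and in 9.22% of all 33469 promoters of the same length. The other shares were 13.3% against 0.666% for HNF1, 3.33% against 0.338% for HNF4, 16.7% against 7.67% for STAT and 10.0% against 5.81% for the glucocorticoid receptor core. Such a match describes the letters and shows no binding. Neighbours within the set are also known: F7, F10 and Proz lie side by side on chromosome 16, as do Klkb1 and F11, while C8a is next to C8b on chromosome 5, C1r to C1s on chromosome 4 and C2 to Cfb on chromosome 20.

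Loss of CBG was accompanied by few differences in these genes. In 30-day females no member was called, higher or lower, against 0.118% of all tested genes called higher and 0.182% called lower. DESeq2 also called 0, and 2 members had an unadjusted p below 0.05 in edgeR. The 3 smallest p-values belonged to Klkb1 (plasma prekallikrein, the protease that F12 activates), Hrg (histidine-rich glycoprotein, which binds heparin and plasminogen) and Mbl2 (a mannose-binding lectin). Klkb1 read 346, 343, 365 and 317 CPM in KO and 415, 404, 405 and 383 CPM in WT. No KO library reached a WT one, but the log2 difference of -0.23 ± 0.07 did not pass (edgeR adjusted p = 0.196). The estimates for Hrg and Mbl2 were -0.51 ± 0.24 and 0.59 ± 0.31, with edgeR adjusted p-values of 0.436 and 0.503. Over the 38 genes the median difference was 0.00915, beside 0.0101 over all genes tested. The summed hepatocyte and stellate markers of these groups did not overlap, at 215190 to 247190 and 904 to 1048 CPM in KO and 247470 to 269970 and 1112 to 1493 CPM in WT.

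In 30-day males Klkb1 was the 1 member called. It read 326, 316, 320.1 and 325 CPM in KO and 390.5, 383, 435 and 483 CPM in WT. All KO values lay below all WT values and within a narrow band. The mean was 322 ± 4.80 (SD, n = 4) in KO and 423 ± 45.9 in WT, a log2 fold change of -0.39 ± 0.07 (edgeR adjusted p = 0.0158). Among all genes 0.0273% were called higher and 0.0273% lower here, 3 genes in each direction. The call rested on the setting: it was lost with limma on the authors' log2 values (adjusted p = 0.0775), in a fit of only the 8 libraries compared (0.114), and in 5 of the 8 fits that left out 1 library, where the adjusted p ran from 0.0103 to 0.0926 (highest without the fourth WT replicate).

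The other 37 members did not pass in 30-day males, although 29 of the 38 estimates were negative, with a median of -0.0892 against 0.00376 over all genes. Hrg came next. It read 1006, 1010.0, 874 and 1090.5 CPM in KO and 1674, 1060.4, 1938 and 2246 CPM in WT, so that the ranges overlapped through a single WT library (log2 difference -0.80 ± 0.24, edgeR adjusted p = 0.385). Mbl1, the other mannose-binding lectin, had an estimate of -0.30 ± 0.10 (edgeR adjusted p = 0.601).

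At 60 days the KO females had lower Masp1 and F9. Masp1, the lectin-pathway protease, read 192, 235, 237 and 213 CPM in KO and 308, 247, 299.6 and 295 CPM in WT. The ranges did not overlap, and the log2 fold change was -0.39 ± 0.08 (edgeR adjusted p = 0.00402). F9, the factor missing in haemophilia B, read 672, 804, 592 and 701 CPM in KO and 878, 979.9, 775 and 962 CPM in WT. Here the highest KO library passed the lowest WT library, and the log2 fold change was -0.38 ± 0.08 (edgeR adjusted p = 0.00576). These were 2 of 38 members lower and 0 higher, in a comparison that called 3.29% of all genes lower and 3.48% higher, so the share of members called was near that of all genes. The median over the members was -0.0283, beside 0.0082 over all genes.

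Without the KO library with photoreceptor transcripts, Masp1 changed by -0.33 (edgeR adjusted p = 0.0234) and F9 by -0.36 (edgeR adjusted p = 0.0216), and both stayed called. Neither was called in a fit of only the 8 libraries compared (edgeR adjusted p = 0.12 and 0.157) or with a score of circadian clock genes as a covariate (0.151 and 0.112). That score, the mean log2 level of positive minus negative clock genes, was -0.422 ± 0.718 in KO and -1.58 ± 0.476 in WT (SD, n = 4). In 30-day males, where Klkb1 was called, it ran from -0.777 to -0.377 in KO and from -1.13 to -0.895 in WT. Those ranges did not overlap. The covariate was fitted at 60 days only, so its part in the Klkb1 call was not tested. In 60-day females DESeq2 called 4 members, adding C3 and C8a, and leaving out the second KO replicate gave 5 in edgeR. Over all genes the main fit called 745, the fit of only the 8 libraries 56, that with the clock covariate 122 and DESeq2 928. C8a, a subunit of the complement pore, had an edgeR estimate of -0.20 ± 0.06 (adjusted p = 0.0521) and C3, the centre of the cascade, -0.24 ± 0.09 (adjusted p = 0.0902). Summed markers of other cells also differed between these groups. Over 10 stellate and fibroblast genes (Col1a2 at 0) they ran from 476 to 510.0 CPM in KO and from 311 to 466 in WT, over 8 exocrine pancreas genes (Prss1 and Pnlip at 0) from 8.12 to 50.1 and from 36.1 to 223, which overlapped. Over 6 neutrophil genes (Ltf at 0) the sums were 2.64 to 5.01 CPM in KO and 1.28 to 1.81 in WT, and over 5 cholangiocyte genes 16.8 to 20.8 and 14.6 to 16.5. The part of these cells in the differences was not tested.

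In 60-day males edgeR called 0 of the 38, as did DESeq2, with 1 unadjusted p below 0.05. All genes gave 0.0545% higher and 0.155% lower. The 3 smallest p-values were those of Masp2 (the second lectin-pathway protease, -0.13 ± 0.06), F9 (-0.16 ± 0.08) and Proz (protein Z, a cofactor of an F10 inhibitor, -0.10 ± 0.06), with edgeR adjusted p-values of 0.436, 0.48 and 0.565. F9 read 987, 939, 906 and 1056 CPM in KO and 1106, 1071, 1076 and 1106 CPM in WT, without overlap. Klkb1, by contrast with its 30-day values, read 480.3, 497, 478 and 514 CPM in KO and 452, 497, 477 and 451 CPM in WT, which overlapped.

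**Figure D1:**
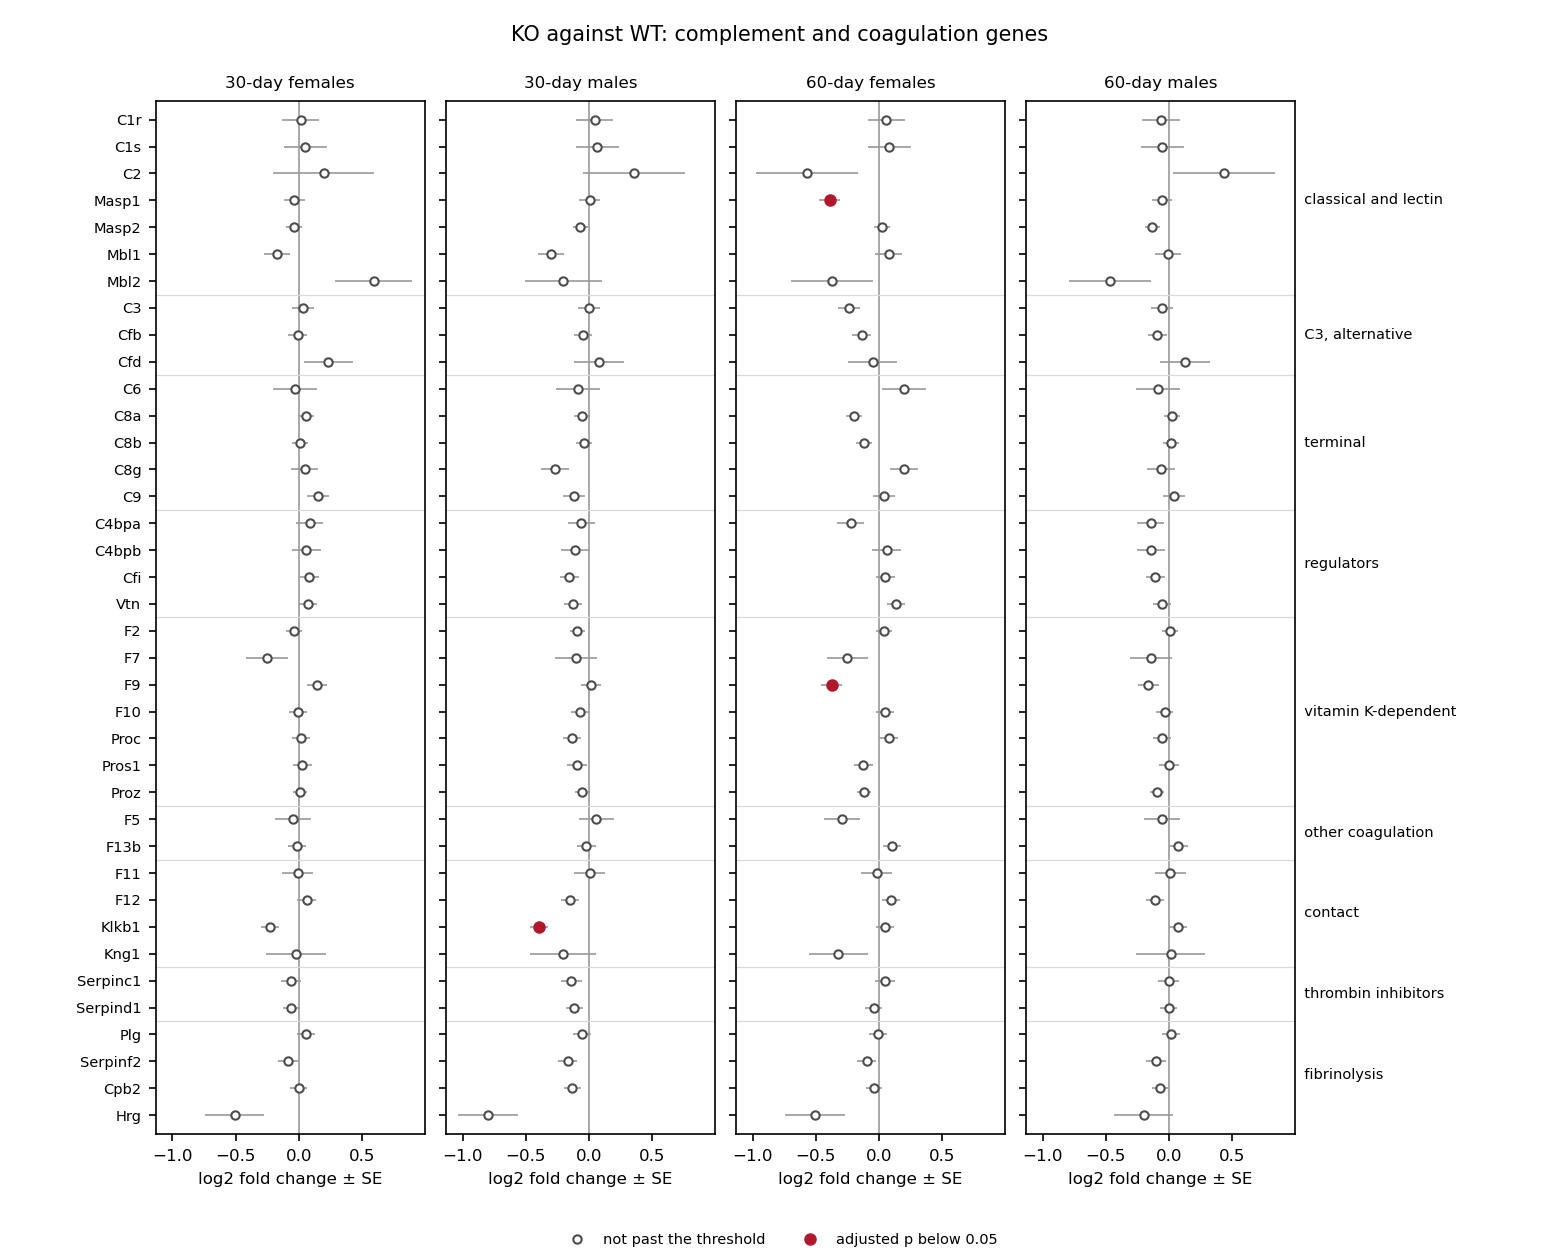
Log2 fold change of KO against WT (x axis, ± SE) for the 38 genes (y axis, ordered by role) in the 4 sex and age groups, with called genes as filled points. The filled points are Klkb1 in 30-day males and Masp1 and F9 in 60-day females; the widest error bars belong to C2 and Mbl2.

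In the main fit, tests of the difference between these genotype effects singled out 1 gene. F9 differed with age in females: the KO effect at 60 days minus that at 30 days was -0.52 ± 0.12 (edgeR adjusted p = 0.0132), 1 of 38 members beside 2.96% of all genes. Its 30-day levels were 700.1, 741, 802 and 732 CPM in KO females and 624, 621, 711 and 735 CPM in WT females, the opposite order to 60 days, with a 30-day estimate of 0.14 ± 0.08 that did not pass (edgeR adjusted p = 0.547). The interaction was lost in a fit of only the 16 female libraries (edgeR adjusted p = 0.0927). Without the library with photoreceptor transcripts it was -0.51 and stayed called (edgeR adjusted p = 0.0291). For age by genotype in females DESeq2 also called C8a, and limma on the authors' log2 values also called Masp1, both with negative estimates. Over all genes they called 584 and 324. In males the age-by-genotype test called 0 members in edgeR (1 unadjusted p below 0.05) and 0.00909% of all genes. Klkb1 had the smallest p there, with 0.46 ± 0.10 and an edgeR adjusted p of 0.124, and DESeq2 called it.

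The genotype effect was not shown to differ between the sexes for any member. At 30 days edgeR and DESeq2 called 0 of 38 for sex by genotype, with 2 unadjusted p-values below 0.05, and 0% of all genes were called. At 60 days both again called 0 of 38, with 2 unadjusted p-values below 0.05, and 0.136% of all genes; without the library with photoreceptor transcripts the count was also 0. Masp1 was closest at 60 days (0.34 ± 0.12, edgeR adjusted p = 0.262), and its male levels were 278, 282, 312 and 332 CPM in KO and 309, 319, 277 and 346 CPM in WT. The genotype effect on Masp1 in 60-day females is therefore not shown to differ from that in males.

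**Figure D2:**
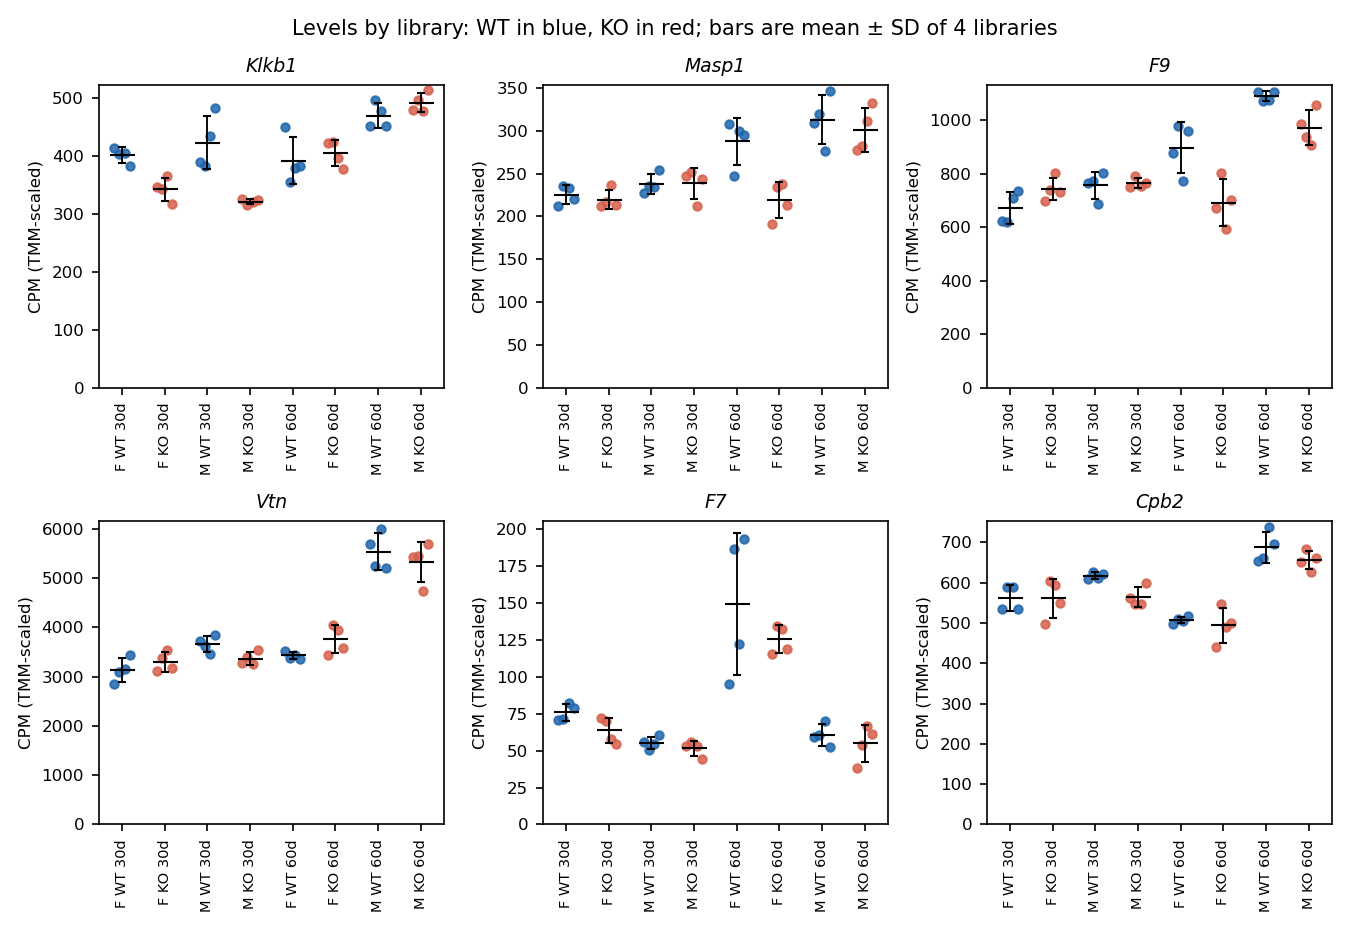
CPM (y axis, from 0) of 6 genes in each library by group (x axis: F or M, WT or KO, age in days), with mean ± SD of 4 libraries as bars. Klkb1 of 30-day KO males sits between 316 and 326, F7 reaches 193 in 60-day WT females, and Vtn lies between 4739.9 and 5998 in 60-day males.

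Replicates of most members lay close together. The median within-group SD was 0.11 on the log2 scale over the 38 genes and 0.19 over all genes tested. The SD of 28 members was at or below the all-gene median, and that of 10 was above it: C2, Mbl2, Hrg, Kng1, Cfd, C6, C1s, F7, C1r and F5. C2, the protease that C1s cleaves to form the C3 convertase, had an SD of 0.664, wider than 96.5% of genes tested. Its 32 values fell into 3 ranges: 23 libraries from 225 to 271 CPM, 8 from 110 to 153 CPM, and 1 at 24.7 CPM. The 8 middle values were unevenly spread, with 3 in 60-day KO females and 2 in 30-day WT males. The 60-day WT females and both 30-day KO groups had 0 of them. In 60-day males the WT libraries read 253, 142, 24.7 and 245 CPM and the KO libraries 234, 271, 133 and 261 CPM. The 60-day KO females read 237, 145, 153 and 139.9 CPM and the WT females 249, 236, 271 and 246 CPM, a difference of -0.57 ± 0.41 that did not pass (edgeR adjusted p = 0.459). Cfb, its neighbour on chromosome 20, read 2306, 2376, 2462 and 2288 CPM in the 60-day WT males, where the third library has the lowest C2 and the highest Cfb.

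Hrg had a within-group SD of 0.357. It spanned 874 to 2830 CPM over the 32 libraries. Its 30-day female values were 1667, 1006, 1356 and 1659 CPM in KO and 1092, 2066, 2830.1 and 2099.9 CPM in WT. At 60 days KO females read 956, 1621, 1514 and 1105 CPM against 1571, 2008, 1321 and 2473 CPM in WT, and KO males 1205, 1519, 1298 and 1292 CPM against 1449, 1582, 1705 and 1376 CPM in WT. The KO mean was the lower one in all 4 comparisons, and none of the 4 passed the test. Mbl2 and Kng1 (kininogen), with SDs of 0.421 and 0.315, were scarce, at 0.328 to 1.81 CPM and 0.763 to 3.86 CPM. Kng1 has close relatives in the rat genome, so that reads may have been divided among them and its values are uncertain. Its relative Kng2, outside the set, read 497 to 882 CPM over the 32 libraries. The low Kng1 values therefore do not show that kininogen transcripts were scarce, and differences of Kng1 describe that symbol alone.

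**Figure D3:**
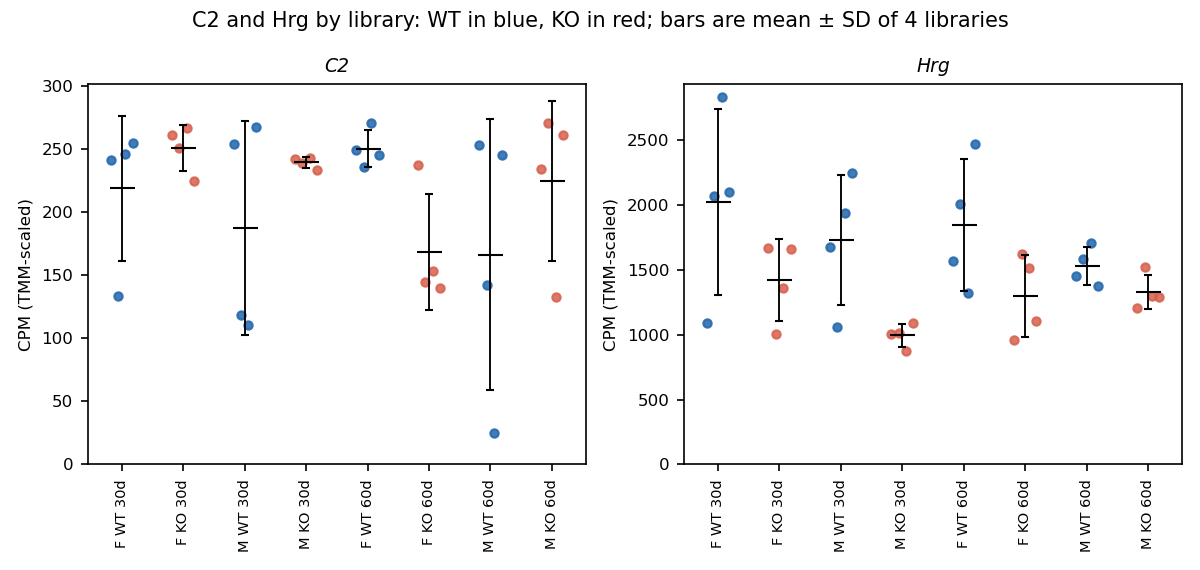
CPM (y axis, from 0) of C2 and Hrg in each library by group (x axis), with mean ± SD of 4 libraries as bars. C2 values lie at 225 to 271, at 110 to 153 or, in 1 WT male of 60 days, at 24.7, whereas Hrg values are spread without such gaps.

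At 30 days few of these genes were called between males and females. Serpind1, the thrombin inhibitor heparin cofactor II, was called lower in males of both genotypes at 30 days. In WT it read 868, 913, 904 and 953 CPM in males and 996, 1049.7, 1156 and 1164 CPM in females (-0.26 ± 0.07, edgeR adjusted p = 0.035). Male values were all lower. In KO the difference was -0.32 ± 0.07 (edgeR adjusted p = 0.00799), and F12, which starts the contact pathway, was also lower (-0.29 ± 0.07, edgeR adjusted p = 0.0287). Thus 1 of 38 was called in WT and 2 in KO, all lower, where all genes gave 1.08% higher and 0.991% lower in WT and 0.854% higher and 1.38% lower in KO. The WT call of Serpind1 was lost in 5 of 8 fits without 1 library (adjusted p 0.0193 to 0.14, highest without the third female replicate), and in a fit of only the 8 libraries compared (0.0979), while its KO call held in 8 of 8. The KO call of F12 was lost in 4 of 8 fits without 1 library (adjusted p up to 0.147, without the third female replicate) and in a fit of only the 8 libraries compared (0.0588). DESeq2 and limma each added Vtn in WT. Fits of only the 8 libraries compared added F7 in WT and C6 in KO, and DESeq2 added C8a in KO, all lower in males. The last number in the 30-day sample titles, of no stated meaning, was 2 in all KO females. It was 1 in most WT females and most KO males, so it nearly followed genotype in females and sex in KO. It was fitted as a covariate only for genotype, so its part in these sex calls was not tested.

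At 60 days 19 of the 38 genes differed between WT males and females, 13 higher in males and 6 lower. Over all genes 13.7% were higher and 12.7% lower. The median difference was 0.128 over the members and -0.000198 over all genes. In KO 12 were higher and 5 lower, where all genes gave 9.63% and 8.89%. In all 14 genes were called in both genotypes and had the same sign in both. That is 73.7% of the WT calls and 82.4% of the KO calls. The matching shares over all genes were not computed, so this overlap is not shown to be particular to these genes. Without the library with photoreceptor transcripts KO had 10 higher and 5 lower, the calls of Proc and Plg having been lost.

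Complement regulators were all called higher in 60-day WT males (4 of 4), although in a fit of only the 8 libraries compared Vtn and C4bpa alone were called. Vtn (vitronectin, which blocks pore assembly and binds cells to matrix) had the smallest p. It read 5687, 5236, 5998 and 5210.3 CPM in WT males and 3516, 3385, 3446 and 3366 CPM in WT females. The gap between the groups was far wider than the spread within either (0.69 ± 0.07, edgeR adjusted p = 1.1e-08). KO males read 5425, 5448, 4739.9 and 5694 CPM and KO females 3445, 4042, 3946 and 3589.8 CPM, again apart (0.50 ± 0.07). C4bpa, the main chain of the C4b-binding protein, was higher by 0.39 in WT and 0.47 in KO. C4bpb and Cfi (factor I, which cleaves C3b and C4b) were called in WT (0.32 and 0.28), and their KO estimates of 0.12 and 0.12 did not pass. The WT call of C4bpb was also lost with limma on the authors' log2 values (adjusted p = 0.0571) and in 3 of 8 fits without 1 library (adjusted p up to 0.144, without the third male replicate).

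The pore genes were split. C9, which forms the ring of the pore, was higher in males of both genotypes: 2103, 1922, 1962 and 1827 CPM against 1554, 1294, 1467 and 1258 CPM in WT females (0.49 ± 0.09, edgeR adjusted p = 7.88e-05). C8a and C8b are neighbours and encode 2 chains of the same C8 protein. C8b was higher in WT males (0.20 ± 0.06, edgeR adjusted p = 0.0177) and C8a lower (-0.28 ± 0.06, edgeR adjusted p = 0.00102). In KO C8b was higher by 0.33, and C8a at -0.06 did not pass. Masp2 was higher in WT males (0.23; KO 0.07, not called) and Masp1 in KO males (0.46; WT 0.12, not called), but no test showed these sex differences to depend on genotype. C3, Cfb and Cfd did not pass in either genotype, and C3 had estimates of -0.14 ± 0.09 and 0.05 ± 0.09.

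Among the clotting factors F7 was lower in 60-day males of both genotypes. F7, the partner of tissue factor, read 95.1, 186, 122 and 193 CPM in WT females and 59.4, 60.7, 70.0 and 52.1 CPM in WT males. Female values were scattered, yet the lowest exceeded the highest male value (-1.30 ± 0.17, edgeR adjusted p = 6.2e-07). KO females read 116, 134, 132 and 119 CPM and KO males 38.1, 53.5, 66.5 and 61.2 CPM (-1.19 ± 0.17, edgeR adjusted p = 3.84e-06). Its neighbour F10 was also lower in males (-0.29 in WT, -0.37 in KO), whereas Proz, next in line, did not pass in either genotype (-0.11 and -0.09). Limma on the authors' log2 values called Proz lower in WT males. F9 was higher in males (0.28 in WT, 0.49 in KO), though its WT call was lost without the third WT female replicate (edgeR adjusted p = 0.0685). The anticoagulants Proc (0.39 and 0.27) and Pros1 (0.36 and 0.48) were also higher. Without the library with photoreceptor transcripts the KO difference of Proc was 0.21 and not called (edgeR adjusted p = 0.0515). F5, the cofactor of F10, was lower in WT males (-0.51 ± 0.14, edgeR adjusted p = 0.00762), and in KO its estimate of -0.27 did not pass. Prothrombin (F2) was not called in either (-0.08 and -0.11).

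In the contact system F11 and its neighbour Klkb1 were higher in 60-day males of both genotypes. F11, the protease that activates F9, read 143, 139, 114 and 126 CPM in WT males and 102, 83.4, 91.4 and 83.7 CPM in WT females, without overlap (0.54 ± 0.12, edgeR adjusted p = 0.00138). For Klkb1 the differences were 0.26 in WT and 0.28 in KO. F12 was lower in KO males (-0.27) and at -0.06 in WT did not pass. Kng1 was lower in males (-1.39 and -1.05). Serpind1 was again lower in males (-0.33 and -0.29), and Serpinc1 was not called. Of the fibrinolysis genes Cpb2 (the carboxypeptidase TAFI, which protects fibrin from plasmin) read 655, 661, 738 and 696 CPM in WT males and 498, 510.2, 506 and 517 CPM in WT females. All male values were higher (0.44 ± 0.07, edgeR adjusted p = 7.6e-06; KO 0.41). Plg was called in KO (0.21, edgeR adjusted p = 0.0411) and not in WT (0.19, 0.055). RLE scaling and DESeq2 called Plg higher in WT males as well. The KO call of Plg was lost in 7 of 8 fits without 1 library, with an adjusted p of up to 0.158 without the library with photoreceptor transcripts, and with upper-quartile scaling.

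A fit of only the 8 libraries compared called 12 members in 60-day WT, 7 higher and 5 lower; Masp2, C8b, C4bpb, Cfi, F9, F10 and Klkb1 were lost (edgeR adjusted p = 0.0549 to 0.111). In 60-day KO such a fit called 10 higher and 4 lower, with Proc, Serpind1 and Plg lost. Over all genes such fits called 1914 in 60-day WT and 1333 in KO, against 2901 and 2037 in the main fit. Other cell markers moved with sex as well. In 60-day WT the cholangiocyte sum was 20.1 to 24.8 CPM in males and 14.6 to 16.5 in females. In the same order the sum of 11 Kupffer cell genes was 574 to 709.5 and 752 to 1231 CPM. The sum of 8 lymphocyte genes was 18.4 to 22.1 and 27.4 to 35.5 CPM. The pancreas sum (Prss1 and Pnlip at 0) was 6.10 to 9.79 and 36.1 to 223 CPM. Hepatocyte sums overlapped in WT. In 60-day KO the sums that did not overlap were those of hepatocyte markers, at 232270 to 258910 CPM in males and 265520 to 295120 in females, stellate and fibroblast markers (Col1a2 at 0), at 530 to 672 and 476 to 510.0, and cholangiocyte markers, at 21.2 to 23.6 and 16.8 to 20.8. Their part in the sex differences was not tested. Reads that the authors' counting could not assign to 1 gene made up 0.554% to 0.648% in 60-day males and 0.262% to 0.466% in the other groups.

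**Figure D4:**
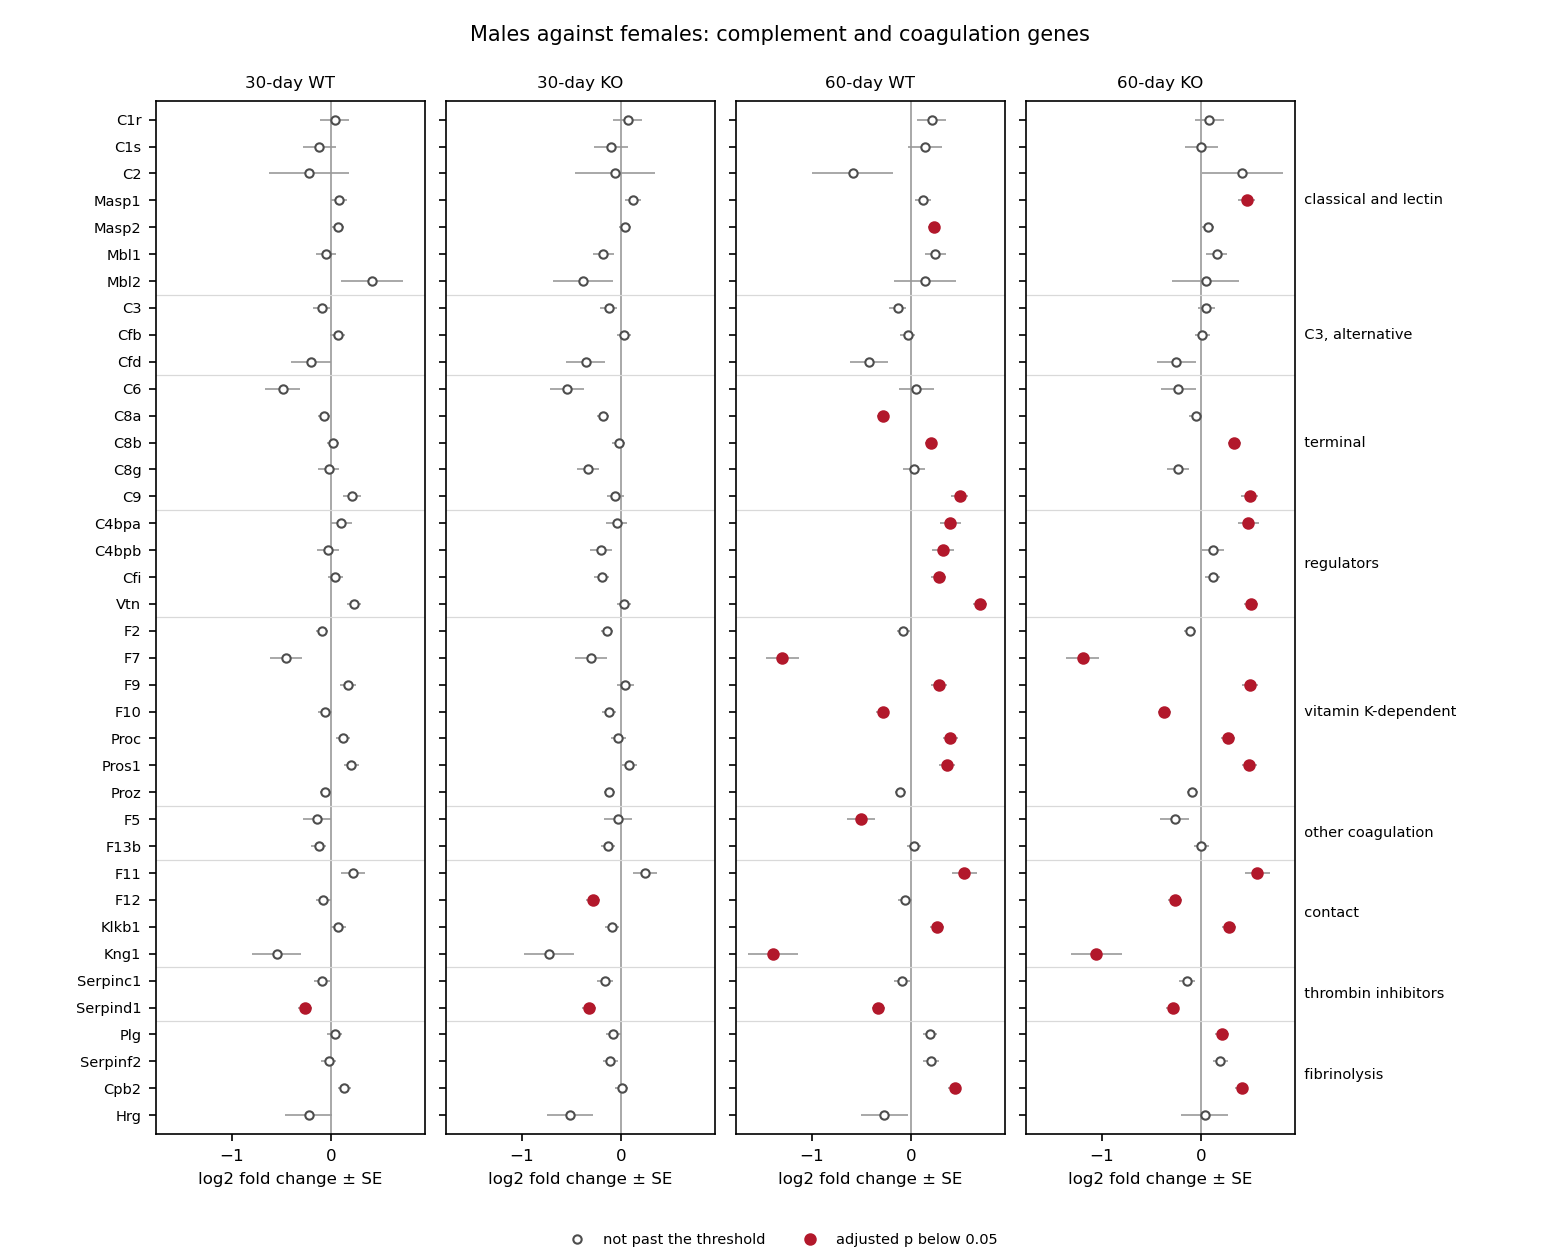
Log2 fold change of males against females (x axis, ± SE) for the 38 genes (y axis, by role) in WT and KO at 30 and 60 days, with called genes as filled points. At 60 days Vtn, C9, Cpb2 and F11 lie to the right in both genotypes and F7 and Kng1 far to the left; at 30 days the filled points are Serpind1 in both genotypes and F12 in KO.

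The change of the sex difference with age was tested in WT. It was called for 3 of 38 members, beside 9% of all genes. Vtn gained 0.46 ± 0.10 in males relative to females (edgeR adjusted p = 0.00281): at 30 days males read 3727, 3618, 3458 and 3852 CPM and females 2849, 3088, 3148 and 3434 CPM. F7 moved by -0.85 ± 0.23 (edgeR adjusted p = 0.018), from 30-day values of 56.1, 50.4, 54.5 and 60.4 CPM in males and 70.5, 71.4, 82.4 and 78.9 CPM in females. Its male levels were alike at both ages, and the female ones were higher at 60 days. Cpb2 moved by 0.30 ± 0.09 (edgeR adjusted p = 0.0385), with 30-day values of 609, 626, 612 and 621 CPM in males and 535, 589.6, 590.2 and 534 CPM in females. The calls of F7 and Cpb2 were lost, and that of Vtn kept, in a fit of only the 16 WT libraries (adjusted p = 0.0504, 0.0501 and 0.0102). Of the 16 fits without 1 library, F7 was lost in 2, those without the second or the fourth WT female of 60 days (adjusted p up to 0.0528), Cpb2 in 10 (up to 0.0833, without the second WT female of 30 days) and Vtn in 0. Cpb2 was also lost with limma on the authors' log2 values (adjusted p = 0.0595).

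From 30 to 60 days most of the differences in these genes were increases. In WT females 20 of 38 rose and 1 fell, where 16% of all genes rose and 17.1% fell. In KO females 13 rose and 2 fell (10.6% and 12.1% of all genes); without the library with photoreceptor transcripts 17 rose and 1 fell, as Cfd, C4bpa, Vtn and Kng1 were then called and Cpb2 was not. In WT males 18 rose and 0 fell (15.7% and 15.8%), and in KO males 23 rose and 0 fell (14% and 14.5%). The median changes over the members were 0.288, 0.141, 0.256 and 0.294 in that order, and those over all genes 0.0106, -0.00384, -0.0088 and -0.0139. In females the calls in WT and KO coincided in 12 genes (57.1% of the WT and 80% of the KO calls). In males they coincided in 18 (100% and 78.3%). Each had the same sign in both genotypes. The matching shares over all genes were not computed here either.

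Of the 5 terminal pathway genes 4 rose in each of the 4 comparisons. C9 read 959, 971, 975 and 1016 CPM in 30-day and 1844, 2179, 1778 and 2216 CPM in 60-day KO males (1.03 ± 0.09, edgeR adjusted p = 7.23e-10). In the other groups it rose by 0.60 (WT females), 0.49 (KO females) and 0.88 (WT males). C6, which binds C5b to begin the pore, rose from 191, 214, 166 and 231 to 517, 505, 404 and 480.4 CPM in WT males (1.25 ± 0.18, edgeR adjusted p = 3.31e-06) and in KO males by 1.25. Its female changes were 0.71 in WT and 0.93 in KO. C8a and C8g rose in all 4 groups, by 0.28 to 0.54 and by 0.62 to 0.88. C8b fell in KO females (-0.27 ± 0.06, edgeR adjusted p = 0.00143) and was not called elsewhere. Lost in fits of only the libraries compared were C6 in WT females (edgeR adjusted p = 0.0605) and C8b in KO females (0.0628), and limma on the authors' log2 values lost C8a in KO females (adjusted p = 0.128).

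C1r and C1s, the proteases of the first complement component, rose in all 4 groups (0.49 to 0.66 and 0.56 to 0.82), and so did Cfb (0.25 to 0.39). The call of C1s in WT females was lost without the second 30-day replicate (edgeR adjusted p = 0.0529), and that of Cfb in KO males without the second 60-day replicate (0.0583). Cfi rose by 0.38 to 0.69. Mbl1 fell in WT females (-0.30 ± 0.11, edgeR adjusted p = 0.0284) and rose in KO males (0.29 ± 0.11, edgeR adjusted p = 0.0382). The first was lost in 4 of 8 fits without 1 library (adjusted p up to 0.127, without the third 60-day replicate) and in a fit of only the libraries compared (0.0655). The second was lost in 5 of 8 (up to 0.177, without the second 60-day replicate), in that fit (0.0569), with upper-quartile scaling and with limma on the authors' values (0.479). C3 rose in WT females (0.25 ± 0.09, edgeR adjusted p = 0.0238) and passed in no other group of the main fit. It was lost in 4 of 8 fits without 1 library (adjusted p up to 0.101, without the third 60-day replicate), in a fit of only the libraries compared (0.104), with upper-quartile scaling and with limma (0.243). RLE scaling and DESeq2 also called C3 higher in WT males. Vtn rose in WT and KO males (0.59 and 0.66), while its female estimates of 0.13 and 0.19 did not pass (without the library with photoreceptor transcripts 0.23 in KO females, edgeR adjusted p = 0.0295). RLE scaling and DESeq2 also called Vtn higher in KO females. C4bpa rose by 0.56 in WT females, 0.85 in WT males and 0.77 in KO males. In KO females it had an estimate of 0.25 that did not pass, and 0.36 without that library (edgeR adjusted p = 0.00761).

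On the coagulation side F12 rose in all 4 groups by 0.40 to 0.46, and Serpinc1 by 0.31 to 0.44; Serpinc1 in WT females was lost in a fit of only the libraries compared (edgeR adjusted p = 0.0513). F7 rose in females of both genotypes (0.98 ± 0.16 and 0.98 ± 0.16, edgeR adjusted p = 3.12e-05 and 5.48e-05), and its male estimates were 0.13 and 0.09, neither of which passed. F10 also rose in females (0.33 and 0.38), and its male estimates of 0.10 and 0.13 did not pass. F9 rose in WT females (0.42), WT males (0.52) and KO males (0.34), and its KO female estimate was -0.10 ± 0.08. Masp1 had the same pattern (0.35, 0.39 and 0.33; KO females -0.00 ± 0.08). Klkb1 rose in KO males from 326, 316, 320.1 and 325 to 480.3, 497, 478 and 514 CPM (0.61 ± 0.07, edgeR adjusted p = 1.6e-07) and in KO females by 0.24, a call lost without the fourth 30-day replicate (edgeR adjusted p = 0.0618). Its WT changes, -0.03 in females and 0.15 in males, did not pass. Proc and Pros1 rose in males of both genotypes (0.26 and 0.34, 0.30 and 0.39). Cpb2 rose in KO males (0.22). In KO females it was called lower (-0.18, edgeR adjusted p = 0.0433), a call lost in 6 of 8 fits without 1 library, with RLE scaling, with no filter and in a fit of only the libraries compared (0.227). Without the library with photoreceptor transcripts it was -0.13 (edgeR adjusted p = 0.18). Plg and F2 rose in KO males (0.23 and 0.17), and Proz in WT females, WT males and KO males (0.27, 0.22 and 0.17). RLE scaling also called Proz higher in KO females, and DESeq2 called Proz, F2 and Cfd higher there. DESeq2 also called Plg and Cpb2 higher in WT males. In KO males the calls of F2 and Proz were each lost in 4 of 8 fits without 1 library (adjusted p up to 0.16 and 0.0772, without the second 60-day replicate) and in a fit of only the libraries compared (0.0736 and 0.0505), and those of F2, Proz and Plg with upper-quartile scaling. C2, Mbl2, F13b (the carrier subunit of factor XIII), Serpinf2 (the plasmin inhibitor) and Hrg were called in no comparison of age, sex or genotype in the main fit. With upper-quartile scaling and with limma, F13b, Serpinf2, C8b and Cpb2 were called lower with age in WT females. DESeq2 called F13b, C8b and Cpb2 lower there, and Serpinf2 between the sexes at 60 days in both genotypes. Limma also called F9, F13b, Plg and Serpinf2 lower with age in KO females, and F13b and Serpind1 in WT males. Fits of only the libraries compared called C2 with age in KO females and Hrg in KO males.

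Scaling bore on the age comparison. The authors' log2 values carry no scaling between libraries, and on them the median change of all genes was -0.116 in WT females, -0.163 in KO females, -0.175 in WT males and -0.214 in KO males. Relative to TMM this lowers each change by about that amount. On those values limma called 19 higher and 5 lower in WT females and 10 and 6 in KO females. In males it called 12 and 2 in WT and 13 and 0 in KO. Over all genes edgeR called 3643, 2498, 3466 and 3127 in that order, and limma on those values 3817, 3396, 4026 and 4371. In KO males Masp1, Mbl1, Cfb, Cfd, F2, F9, Proc, Proz, Plg and Cpb2 were lost there, in WT males Cfb, Cfd, Proc, Pros1, Proz and Serpinc1, and in KO females Cfb, C8a and Klkb1. The sum over stellate and fibroblast markers fell with age, from 904 to 1513.5 CPM in the 30-day libraries to 311 to 672 CPM in the 60-day ones, with Col1a2 at 0 throughout, and the cholangiocyte sum from 28.02 to 38.8 CPM to 14.6 to 24.8 CPM. In KO females the hepatocyte sum was 215190 to 247190 CPM at 30 days and 265520 to 295120 at 60 days, and the neutrophil sum (Ltf at 0) 1.08 to 2.26 and 2.64 to 5.01. In WT females the lymphocyte sum went from 17.9 to 23.3 CPM to 27.4 to 35.5 CPM and the pancreas sum (Prss1 and Pnlip at 0) from 8.08 to 13.7 CPM to 36.1 to 223 CPM. In WT males the pancreas sum was 10.3 to 20.4 CPM at 30 days and 6.10 to 9.79 at 60 days. Their part in the changes was not tested.

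**Figure D5:**
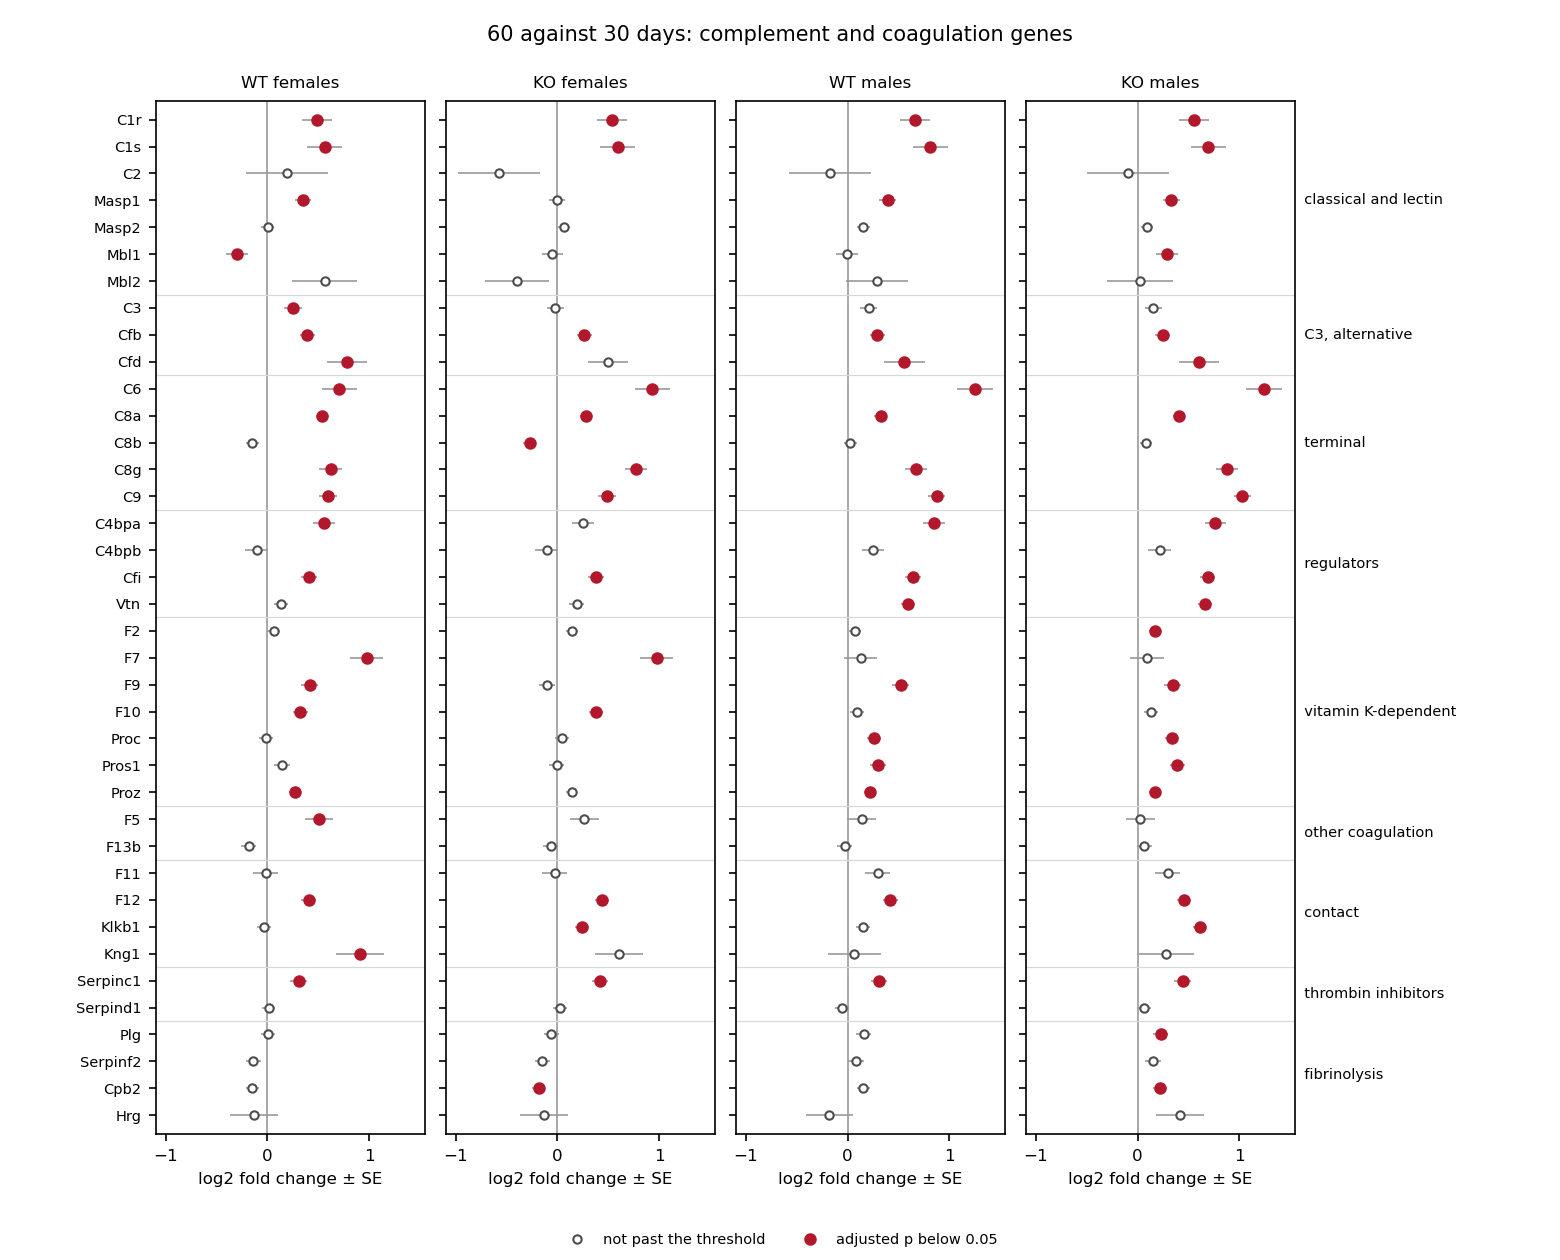
Log2 fold change of 60 against 30 days (x axis, ± SE) for the 38 genes (y axis, by role) in the 4 sex and genotype groups, with called genes as filled points. Filled points lie almost all to the right of 0; the exceptions are Mbl1 in WT females and C8b and Cpb2 in KO females.

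Other genes of the same pathways, 45 of them tested, gave a background to these results. They include fibrinogen, C1q, C4, receptors and membrane regulators, many of them made by other cells. Between genotypes 1 was called higher in 30-day females, 1 higher and 4 lower in 60-day females, and 0 in males at either age (edgeR; 4 and 5 unadjusted p-values below 0.05). In females the shares over all genes were 0.118% higher at 30 days, and 3.48% higher and 3.29% lower at 60 days. The gene that rose in both female comparisons was Serpina5 (protein C inhibitor, 2.63 ± 0.42 and 2.18 ± 0.46, edgeR adjusted p = 0.00286 and 0.00407). It was scarce: the 60-day female libraries read 5.47, 2.77, 2.83 and 2.14 CPM in KO and 0.866, 1.21, 0.0651 and 0.769 CPM in WT. Male KO libraries also lay above all male WT ones, at 4.05 to 7.13 against 1.28 to 3.65 CPM at 30 days and 4.50 to 6.88 against 1.46 to 2.30 CPM at 60 days, but the estimates of 0.92 ± 0.35 and 1.38 ± 0.38 did not pass (edgeR adjusted p = 0.659 and 0.153). The genotype effect on Serpina5 was not shown to differ between the sexes (sex by genotype, edgeR adjusted p = 0.811 and 0.698). By its name Serpina5 belongs to the same gene family as the target, Serpina6. The chromosome check above covered only the listed members, so the distance of Serpina5 from the target was not examined. Any part of that position in its difference was not tested. Habp2, a plasma protease that can activate F7, fell in 60-day KO females (-0.47 ± 0.09, edgeR adjusted p = 0.0028). The 3 fibrinogen chains fell with it: Fga by -0.36, Fgb by -0.33 and Fgg by -0.37 on the log2 scale (edgeR adjusted p = 0.0133, 0.0242 and 0.00846). Fga read 4136, 6026, 4938 and 4688 CPM in KO and 6266, 6053, 6072 and 6928 CPM in WT, without overlap. Without the library with photoreceptor transcripts Fga and Fgb were no longer called (-0.28 and -0.24, edgeR adjusted p = 0.0715 and 0.119), while Fgg, Habp2 and Serpina5 were (-0.30, -0.42 and 1.83; 0.048, 0.0161 and 0.0234). None of these genes was called in fits of only the 8 libraries compared (edgeR adjusted p = 0.0581 for Serpina5 at 30 days and 0.0996 to 0.203 at 60 days), and of them only Habp2 was called at 60 days with the clock covariate. The 30-day call of Serpina5 was also lost in a fit of the 30-day libraries with the title number as a covariate.

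Sex differences at 60 days reached 8 higher and 11 lower of these 45 genes in WT and 10 higher and 6 lower in KO (9 and 7 without the library with photoreceptor transcripts). The shares over all genes were 13.7% and 12.7% in WT and 9.63% and 8.89% in KO. With age 12 rose and 11 fell in WT females, 5 and 9 in KO females (6 and 8 without that library), 13 and 10 in WT males, and 13 and 7 in KO males. In that order 16%, 10.6%, 15.7% and 14% of all genes rose, and 17.1%, 12.1%, 15.8% and 14.5% fell. Of 18 transcription factors and receptors known to act on liver secretory genes, 1 was called between genotypes in 60-day females and 1 in 60-day males, both named after their values were seen. The first was Il6st (gp130, the signalling chain of the interleukin-6 receptor), which read 237, 279.5, 280.3 and 247 CPM in KO and 375, 372, 599 and 389 CPM in WT (-0.73 ± 0.12, edgeR adjusted p = 0.00042). The second was Cebpb (a C/EBP factor), at 32.6, 35.1, 34.4 and 47.4 CPM in KO and 66.3, 83.1, 74.4 and 77.0 CPM in WT (-1.01 ± 0.17, edgeR adjusted p = 0.00792). In each the KO values lay below all WT values. Over all genes 3.29% were called lower in 60-day KO females and 0.155% in 60-day KO males. Il6st was -0.69 without the library with photoreceptor transcripts (edgeR adjusted p = 0.00266) and was lost in a fit of only the 8 libraries compared (0.0718). Cebpb was lost without the first KO replicate (edgeR adjusted p = 0.0614).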

How the data were processed

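The authors deposited raw counts of reads per gene for 17327 genes and log2 values of 11344 genes. The deposited log2 values were log2 CPM to within 5e-09, with 0.5 added to a gene's count and 1 to the library total. The tools were STAR, Cufflinks and limma on Rnor_5.0, per the submitters' processing notes; versions, annotation and the strand setting were not given in the sources used here. Unassigned reads (18.0% to 21.2% on no feature, 0.262% to 0.648% ambiguous) stayed out of library sizes.

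Counts were fitted in edgeR 4.0.16 (R 4.3.3) with filterByExpr (minimum count 10), TMM scaling and 1 robust quasi-likelihood model with a mean for each of 8 groups of the 32 libraries (24 residual degrees of freedom), tested on simulated data. Folds are lightly shrunk by edgeR's prior count. Alternatives were DESeq2 1.42.0, limma 3.58.1 on the log2 values, other scaling, no filter, fewer libraries, a clock covariate, the title number as a covariate and leaving out each library. Named were members called in genotype contrasts and interactions (or the 3 smallest p-values), the 6 called with the smallest adjusted p per direction for sex and age, and others named there. The members and lists were chosen with earlier results of these data known. Replicate numbers follow sample order and pair no animals.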

Additional observations from a re-analysis of the deposited data

Results flagged for a closer look

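In 20 of 304 groups of 4 libraries (6.58%) 1 library lay far from the other 3 by Dixon's test, which chance gives in about 1 of 20 groups. Among 30-day WT females these were C1r at 892.4 CPM and C6 at 417.6 CPM in replicate 4, C2 at 133.4 CPM in replicate 2, and C9 at 780.7, Proc at 480.6 and Serpinf2 at 1074 CPM in replicate 1. In 30-day KO females they were Masp2 at 221.8 CPM in replicate 1, C4bpb at 445.2 in replicate 2, and F10 at 555.7 and Proz at 367.9 in replicate 3. In 30-day WT males Masp2 stood at 240.3 CPM in replicate 3 and Mbl1 at 270.7 in replicate 4. At 60 days WT females had Cfb at 2114 CPM in replicate 1, Plg at 3654 in replicate 2 and F5 at 313.3 in replicate 3. The 60-day KO females had C2 at 237.4 CPM and Masp2 at 229.7 in replicate 1, the library with photoreceptor transcripts, and Serpinf2 at 1141 in replicate 2. In 60-day WT males replicate 3, which has the lowest C2 of all libraries, had Proc at 733.8 CPM and F12 at 1272.

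In the main fit a test of the difference between groups was passed by 4 members. F9 had a genotype effect that differed between 60 and 30 days in females by -0.5192 on the log2 scale. The sex difference of WT rats differed between 60 and 30 days by 0.4635 for Vtn, 0.3022 for Cpb2 and -0.8476 for F7.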

How the results depend on the processing

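Of 282 recomputed counts of called members 249 stayed within 1.5 times the value given, and 33 did not. For named members 1107 recomputed log2 fold changes kept their side of the threshold, 55 no longer passed, 1 newly passed and 0 changed sign. In a fit of only the libraries compared the count was 0 for KO against WT in 30-day males and in 60-day females, 12 for sex in 60-day WT, 0 for age by genotype in females and 1 for sex by age in WT. DESeq2 gave 4 for KO against WT in 60-day females, 2 for sex in 30-day WT, 2 for age by genotype in females and 1 in males. With limma on the authors' log2 values the counts were 0 for KO against WT in 30-day males, 2 for sex in 30-day WT, 13 for age in KO males and 2 for age by genotype in females. The clock covariate left 0 for KO against WT in 60-day females. Counts over all genes moved too. In the order given, fits of only the libraries compared called 5, 56, 1914, 93 and 770 genes. The main fit called 6, 745, 2901, 326 and 990 there. DESeq2 called 928, 337, 584 and 18 genes, where the main fit called 745, 228, 326 and 1. With limma they were 7, 175, 4371 and 324, where the main fit called 6, 228, 3127 and 326. With the clock covariate 122 genes were called, against 745. Where not shown by fewer libraries, the cause was not tested. Leaving out 1 library gave 0 to 1 for KO against WT in 30-day males, 2 to 5 in 60-day females, 0 to 1 for sex in 30-day WT, 1 to 2 in 30-day KO, 1 to 2 for age by genotype in females and 1 to 3 for sex by age in WT. No paired analysis was possible because nothing in the labels links rats between groups. Depth limits Mbl2 and Kng1, at 3.86 CPM or less.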
